A study of Mus musculus with 9 samples.

Results

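The cytosolic ribosomal protein genes encode the protein part of the ribosome that works outside mitochondria. They were followed here in RNA-seq libraries of mouse embryonic stem cells (ESCs) with mutated *Rbbp4*, the gene of a histone-binding protein found in several chromatin complexes. The genes were taken by symbol, as every symbol made of Rpl, Rps, Rplp or Rpsp, a number and at most one of the letters a, x and l, together with *Rpsa*. This rule found 82 of the 25239 gene symbols in the counts, 50 of them named for the large subunit and 32 for the small subunit. Among them, *Rpl32l* and *Rps4l* are annotated as processed pseudogenes. All 82 passed the filter on low counts, which left 14125 genes for the tests. The rule leaves out some genes whose products are also part of the ribosome, such as *Rps3a1*, *Rack1* and *Fau*.

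Cells of 3 genotypes of the E14 ESC line (strain 12910la in the labels) were compared, with 3 libraries each and 9 in all. The control was *Rbbp4*+/+. The *Rbbp4* Ins/Ins line has the same short in-frame insertion on both alleles, and the *Rbbp4* Ins/Del line has that insertion on an allele and a short in-frame deletion on the other. Each mutant line is a single clone made with Cas9, so the genotype and the clone cannot be told apart. All cells grew with serum and leukemia inhibitory factor, and their ages or passages are not given in the sources used here. Nothing in the labels says whether the 3 libraries of a line came from separate cultures, so the p-values measure the spread between these libraries, which may be technical.

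Libraries held 15838064 to 21366868 counted reads. *Rbbp4* itself gave normalized counts of 9932, 9965 and 10117 in the control, of 5485, 5551 and 5776 in Ins/Ins, and of 10129, 10344 and 10603 in Ins/Del. Its level therefore separates the libraries of Ins/Ins from the others and says nothing about the Ins/Del label. Markers of pluripotent cells were abundant in all 9 libraries. Summed over 10 genes, they had 99405 to 104100 normalized counts in the control, 123071 to 124906 in Ins/Ins and 122836 to 125562 in Ins/Del. They did not all move the same way, with 7 called higher and 2 lower in Ins/Ins, and 6 higher and 1 lower in Ins/Del. The summed level of 8 fibroblast markers was 623 to 732 in the control, 279 to 301 in Ins/Ins and 355 to 388 in Ins/Del, and *Lum* had no more than 1 read in any library. Its members moved apart. Of the 5 tested, 4 were called lower in both mutants, among them *Col1a1* (log2 -4.04 and -3.55), *Col1a2* (-5.28 and -4.76) and *Col3a1* (-5.31 and -4.78), and *Thy1* was higher (2.43 and 2.77). Of 7 primitive endoderm markers the sums were 371 to 399, 210 to 271 and 316 to 346 in the same order. *Dab2*, the most abundant of them in the control, fell by 1.35 and 1.29 on the log2 scale and *Sox7* rose by 1.63 and 2.22. Among the 6 tested, Ins/Ins had 1 called higher and 2 called lower, and Ins/Del had 4 and 2. The part of these differences in the results for ribosomal protein genes was not tested. In bulk RNA, a change in the make-up of a culture and a change in RNA per cell cannot be told apart.

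A ribosome holds a single copy of nearly every one of its proteins, and cells make the proteins in matched amounts. In mammals most of them are encoded by a single active gene among many processed pseudogenes, and a few have a second gene, often used in testis or muscle. Their messenger RNAs start with a C followed by a run of pyrimidines, called the 5′ terminal oligopyrimidine (TOP) motif, through which translation of the whole set responds to the kinase mTOR. ESCs, which divide fast, transcribe these genes at high levels.

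The shared start of these genes can be read in their promoters. RefSeq promoters on build GRCm38.p6 were given for 61 of the 82 genes, as 73 windows from 250 bases before to 50 bases after a start. Below are 30 bases around the start of 4 of them, from 10 bases before it to 20 after it. They show the pyrimidine run in genes with different calls, since *Rpl35* and *Rpl38* were higher in Ins/Ins and not called in Ins/Del, *Rpl28* was lower in Ins/Del and not called in Ins/Ins, and *Rpl15* was higher in both mutants. The call of *Rpl35* was lost with scaling by total counts and without control replicate 1 or Ins/Ins replicate 1 or 3. Each is written 5′ to 3′ on the strand of the gene, with CTTTC in capitals.
Rpl28 (chr7:4792955-4792984, plus strand): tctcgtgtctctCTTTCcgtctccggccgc
Rpl35 (chr2:39005112-39005141, minus strand): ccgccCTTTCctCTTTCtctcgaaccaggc
Rpl38 (chr11:114668570-114668599, plus strand): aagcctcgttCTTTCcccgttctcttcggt
Rpl15 (chr14:18270967-18270996, minus strand): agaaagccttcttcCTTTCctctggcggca

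On the strand of the gene, from 30 bases before to 50 after the start, the letters CTTTC were found in 46.6% of the 73 windows and in 10.3% of 32851 windows of all genes. The longer CTCTTTC, which contains CTTTC, was found in 17.8% against 1.08%. On either strand of the whole 300 bases, the ETS factor motif CCGGAAG was found in 35.6% against 8.86%, and the YY1 motif AAGATGGC in 9.59% against 2.75%. The E-box CACGTG was in 11% against 7.15%, the E2F motif GCGGGAA in 9.59% against 4.6%, and TATAAA in 9.59% against 13.6%. In the 250 bases before the start the median number of CpG dinucleotides was 17 in the ribosomal protein genes and 6 over all windows. These matches describe the letters of the windows and not the binding of a factor.

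Per kilobase of transcript and scaled to library size (RPKM), the median level of the 82 genes over the 9 libraries was 564. The highest levels were those of *Rpl4* (2022), *Rpl13a* (1946) and *Rpl8* (1911), all of the large subunit. At the other end were *Rpl3l* (0.780), *Rpl32l* (2.94) and *Rps27* (7.40), and 74 genes lay above 100. The libraries held 36 to 64 reads of *Rps27* each, although its product is a standard part of the small subunit. Of the 50-base windows of the *Rps27* transcript, 98.65% were also found in transcripts of other genes, 9 of them in all. *Rpl9*, with 93.32% shared windows, lay at 946 RPKM, and *Rpl30*, with 29.75%, lay at 15.5. The part of shared sequence in these levels was not tested. For the whole family the median of this share was 42.5%, and 79 of the 82 genes shared at least 1 window. How reads that match several genes were counted is not given in the sources used here, so levels of single members are uncertain, and a change in a member can hold reads of its copies.

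**Figure D1:**
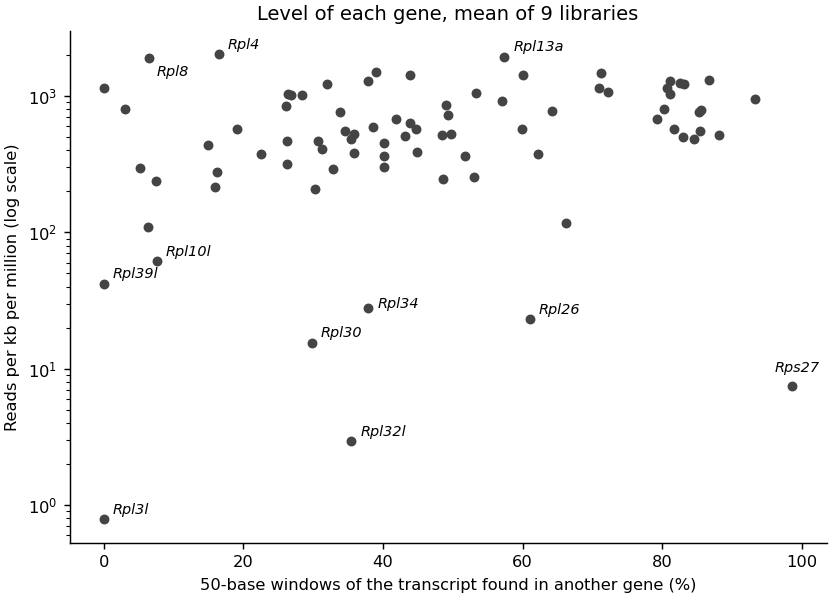
Level of each of the 82 genes as RPKM (vertical, log scale, mean of 9 libraries) against the share of 50-base windows of its transcript that is also found in another gene (horizontal, percent). Most genes lie above 100. *Rps27*, with 98.65% shared windows, lies at 7.40, and *Rpl30*, with 29.75%, lies at 15.5.

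The family as a whole was higher in Ins/Ins than in the control and not in Ins/Del. The 82 genes took 5.094%, 5.244% and 4.975% of the counted reads in the control libraries. They took 5.550%, 5.377% and 5.430% in Ins/Ins, so that every Ins/Ins library lay above every control library. In Ins/Del they took 4.901%, 5.042% and 5.029%, within or just under the range of the control. The means were 5.10% ± 0.135 (SD, n = 3), 5.45% ± 0.0885 and 4.99% ± 0.0782. Without the ribosomal RNA precursor *Rn45s* in the total, they were 5.2%, 5.58% and 5.11%.

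Both subunits followed this order. Large subunit genes took 2.97% ± 0.0759 (SD, n = 3) of the reads in the control, 3.19% ± 0.0544 in Ins/Ins and 2.93% ± 0.0443 in Ins/Del. Small subunit genes took 2.13% ± 0.0598, 2.26% ± 0.0341 and 2.06% ± 0.0341. The level of the typical member was also set against the scale of all genes, as the median over the members of the ratio to their mean, divided by the TMM factor of the library. On this measure the Ins/Ins libraries lay at 106.7% to 110.1% of the control mean and the Ins/Del libraries at 98.1% to 101.3%, beside 97.7% to 101.4% in the control. No test was made on these sums, since the genes were chosen with results of these data known.

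**Figure D2:**
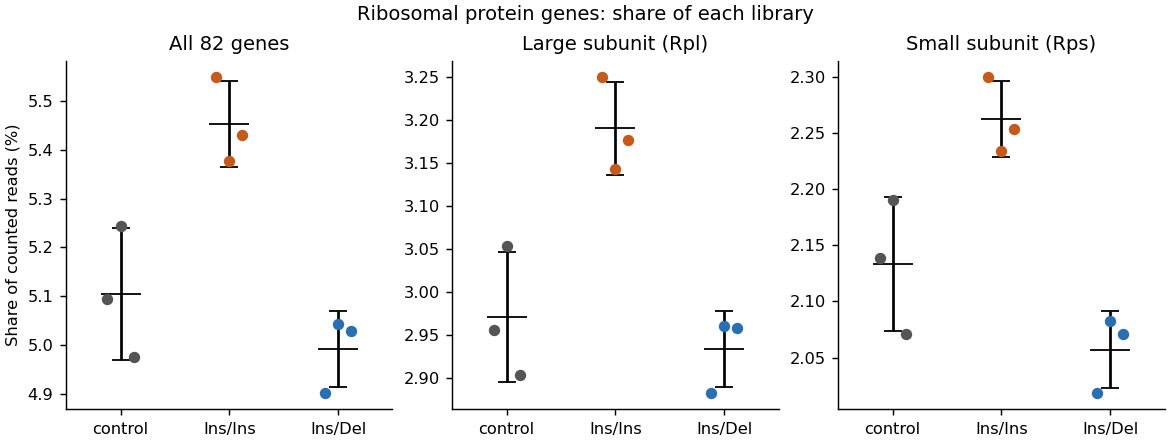
Share of the counted reads of each library that fell on ribosomal protein genes (vertical, percent, axes not starting at 0), for all 82 genes and for each subunit. Points are libraries, and bars give the mean and SD of 3 libraries. The 3 Ins/Ins libraries lie above the control and the Ins/Del libraries in all panels.

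In Ins/Ins, 54 of the 82 genes were higher than in the control and 1, *Rpl7*, was lower (edgeR's quasi-likelihood test, adjusted p of at most 0.01 with the Benjamini-Hochberg method over all 14125 genes). Over all genes tested, 29% were called higher and 29.4% lower in this comparison. The median standard error was 0.029 (log2) for the 82 genes and 0.074 for all genes tested, so smaller changes could be called among the 82. The changes were small. Of the 82 genes, 6 were called higher with a fold of at least 1.2, against 21.4% of all genes tested. The median log2 fold change of the 82 genes was 0.12, against 0.004 over all genes tested, and the estimate was above 0 for 73 genes. Of the 50 large subunit genes 35 were higher and 1 lower, and of the 32 small subunit genes 19 were higher. For 61 genes all 3 Ins/Ins libraries lay above all 3 control libraries, as they did for 34.9% of all genes tested, and for 1 gene they lay below, against 34.2%. The genes lie on 19 chromosomes, and the median change of the members was above 0 on each of them. The genes of a library share its scaling, so their calls are not independent of each other.

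In Ins/Del, 17 genes were higher than in the control and 17 lower, where 30.6% and 31.9% of all genes tested were called. Of the 82 genes, 5 were called higher with a fold of at least 1.2, against 23.6% of all genes tested. The median log2 fold change was 0.01, against -0.01 over all genes tested. Of the large subunit genes 9 were higher and 7 lower, and of the small subunit genes 8 and 10. The groups did not overlap for 21 genes that lay above the control and 21 that lay below it, against 35.9% and 36.9% of all genes. The comparisons of Ins/Ins and Ins/Del with the control use the same 3 control libraries.

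The difference between the mutant lines was tested directly. In Ins/Del, 50 of the 82 genes (61%) were lower than in Ins/Ins and 2, *Rpl10l* and *Rpl39l*, were higher, where 4.64% and 6.17% of all genes tested were called lower and higher by the same edgeR test. The median standard error was 0.029 (log2) for the 82 genes and 0.075 for all genes tested. Smaller changes could therefore be called among the 82, and the shares called are not compared at equal precision. The median log2 difference was -0.11, against -0.004 over all genes, and the estimate was below 0 for 74 genes. The lowest log2 difference among the 50 was -0.21, short of a fold of 1.2 that 2.02% of all genes passed downward. For 60 genes all Ins/Del libraries lay below all Ins/Ins libraries and for 3 above, against 16.7% and 17.4% of all genes. Among the large subunit genes 28 were lower, and among the small subunit genes 22. Without Ins/Del replicate 1, the library with the smallest share of ribosomal protein reads, 30 genes were lower and the median was -0.10.

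**Figure D3:**
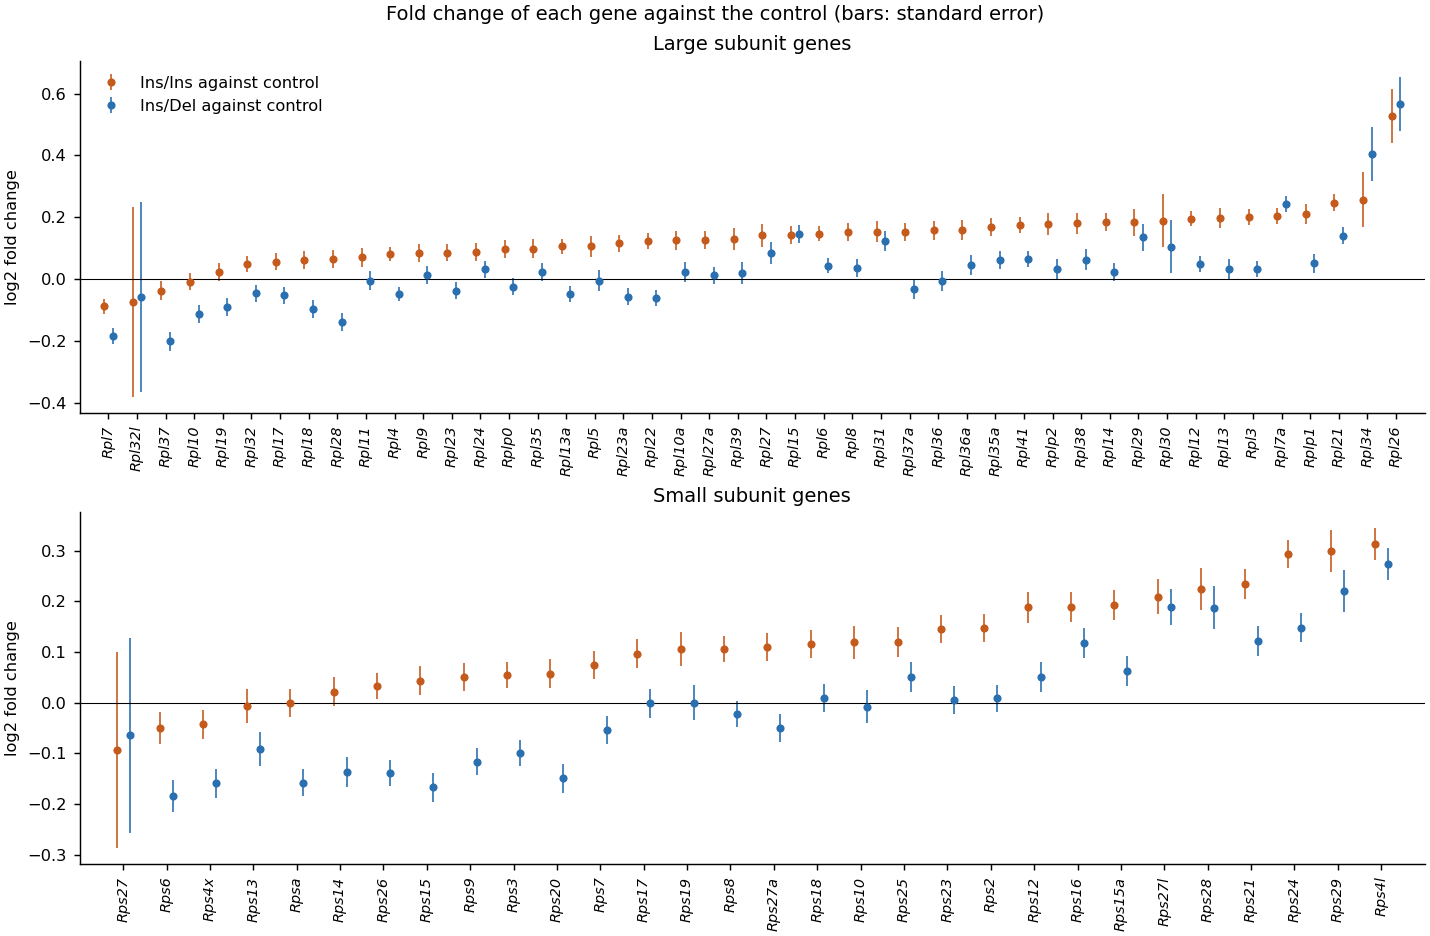
Log2 fold change of each gene against the control (vertical) with its standard error from edgeR, in Ins/Ins (orange) and Ins/Del (blue), with genes ordered by the change in Ins/Ins. The plot holds 76 of the 82 genes. *Rpl10l*, *Rpl39l* and *Rpl3l*, whose changes in Ins/Del were above 0.8, are among those not drawn. Most orange points lie above 0 and above the blue point of the same gene.

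Read across both mutants, the members fell into a few patterns of calls. These patterns were not counted over all genes tested, so the size of a group is not compared with other genes. In Ins/Ins 29% of all genes tested were called higher and 29.4% lower, and in Ins/Del 30.6% and 31.9%. The largest group, of 38 genes, was higher in Ins/Ins and was not called in Ins/Del. It held *Rplp0*, *Rplp1* and *Rplp2*, which form the stalk that recruits translation factors. *Rplp1* had 12406, 12724 and 11616 normalized counts in the control, 14863, 13553 and 14093 in Ins/Ins, and 12534, 12716 and 12821 in Ins/Del. All Ins/Ins libraries were high, and the Ins/Del libraries lay within or just above the control. The rise in Ins/Ins was 0.21 (log2, standard error 0.031, edgeR adjusted p = 2.2e-07), and the estimate in Ins/Del was 0.05 (edgeR adjusted p = 0.14). *Rplp2* gave 0.18 and 0.03, and *Rplp0*, with the smallest change of the 3, 0.10 and -0.02. The call of *Rplp0* in Ins/Ins was lost with scaling by total counts and without control replicate 3 or Ins/Ins replicate 3.

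*Rpl3*, which lies close to the peptidyl transferase centre, had 18137, 18783 and 18496 normalized counts in the control, 21654, 20522 and 21507 in Ins/Ins, and 18465, 19177 and 19046 in Ins/Del. Its mean was 14.9% above the control in Ins/Ins and 2.30% above it in Ins/Del, where the libraries overlap those of the control. *Rpl38*, whose loss in mice disturbs the patterning of the skeleton, was 13.3% higher in Ins/Ins (adjusted p = 1.2e-05 from edgeR), and its change of 4.50% in Ins/Del was not called. *Rps19*, a gene mutated in Diamond-Blackfan anaemia, had a log2 fold change of 0.11 in Ins/Ins (adjusted p = 0.0059 from edgeR), with a control library above the lowest Ins/Ins library, and 0.0004 in Ins/Del. Its call in Ins/Ins was lost with DESeq2, with scaling by total counts and without control replicate 3 or Ins/Ins replicate 1 or 3. *Rps27a*, which is made as a fusion to ubiquitin, was 7.94% higher in Ins/Ins, and its difference of -0.16 (log2) between the mutants had an adjusted p of 4.5e-05 from edgeR.

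*Rpl5* and *Rpl11* form with 5S rRNA the particle that binds MDM2, the ubiquitin ligase of p53. *Rpl5* was higher in Ins/Ins, by 0.11 on the log2 scale (adjusted p = 0.0053 from edgeR), a call that was lost with DESeq2, with scaling by total counts and without control replicate 1 or Ins/Ins replicate 3. *Rpl11* gave 0.07 (adjusted p = 0.043 from edgeR) and was not called. In Ins/Del both were near the control, at -0.01 each. *Mdm2* itself was higher in both mutants, by 0.72 and 0.77 on the log2 scale.

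A second group, of 16 genes, was lower in Ins/Del and was not called in Ins/Ins. Among them were *Rpl10*, *Rpl18*, *Rpl19*, *Rpl28*, *Rpl37*, *Rps3*, *Rps4x*, *Rps6*, *Rps9*, *Rps14*, *Rps15*, *Rps20*, *Rps26* and *Rpsa*. Small subunit genes made up 10 of the 16. The calls of *Rpl10*, *Rpl18*, *Rpl19*, *Rps3* and *Rps9* were each lost without control replicate 2. That of *Rpl19* was lost in 8 of 17 alternatives, among them DESeq2 and upper-quartile factors, and that of *Rpl18* in 6. *Rps6*, the protein phosphorylated by S6 kinase downstream of mTOR, had 8138, 8221 and 8238 normalized counts in the control and 7846, 7580 and 8342 in Ins/Ins. In Ins/Del it had 6884, 7368 and 7390, below every other library. In Ins/Del it changed by -0.18 (log2, standard error 0.032, edgeR adjusted p = 3.1e-06), and in Ins/Ins the estimate was -0.05 (edgeR adjusted p = 0.17). *Rpsa*, also known as the laminin receptor, fell by 10.3% in Ins/Del, and its mean in Ins/Ins differed from the control by -0.054%.

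*Rps15* and *Rps20* of the small subunit were chosen after their values were seen, as the genes with the lowest log2 difference of Ins/Del from Ins/Ins. *Rps15* had 14274, 14567 and 13467 normalized counts in the control, 14858, 14398 and 14341 in Ins/Ins, and 12292, 12623 and 12790 in Ins/Del. The Ins/Del libraries lay below the others, and the Ins/Ins libraries overlapped the control. The log2 difference between the mutants was -0.21 for each of the 2 genes (adjusted p = 6.7e-07 and 9.9e-07 from edgeR). *Rpl37*, also chosen after its values were seen, had the lowest change of all members in Ins/Del, at -0.20 (adjusted p = 6.6e-07 from edgeR), and -0.04 in Ins/Ins.

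*Rpl7* was the member lower in both mutants. It had 23917, 24276 and 23417 normalized counts in the control, 22069, 22694 and 22605 in Ins/Ins, and 20643, 21055 and 21387 in Ins/Del, with no overlap between any 2 lines. Its mean fell by 5.93% in Ins/Ins (log2 fold change -0.09, standard error 0.026, adjusted p = 0.0026 from edgeR) and by 11.9% in Ins/Del (-0.18, adjusted p = 5.6e-08 from edgeR). The call in Ins/Ins was lost with upper-quartile scaling and without control replicate 2 or Ins/Ins replicate 1, with adjusted p-values from 0.00035 to 0.050 over all alternatives. Its paralog *Rpl7l1*, which the rule leaves out, went the other way, with 4603, 4295 and 4402 normalized counts in the control, 5207, 5427 and 5423 in Ins/Ins, and 5768, 5729.6 and 5766 in Ins/Del. Of the reads per length of the 2 genes together, *Rpl7l1* took 7.66% ± 0.305 (SD, n = 3) in the control, 9.61% ± 0.077 in Ins/Ins and 10.9% ± 0.18 in Ins/Del.

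Higher in both mutants were 16 genes, among them *Rpl7a*, *Rpl10l*, *Rpl15*, *Rpl21*, *Rpl26*, *Rpl29*, *Rpl31*, *Rpl39l*, *Rps4l*, *Rps16*, *Rps21*, *Rps24*, *Rps27l*, *Rps28* and *Rps29*. The calls of *Rpl29* and *Rpl31* in Ins/Del were lost without control replicate 1 or Ins/Del replicate 2. That of *Rpl29* was also lost with DESeq2 and with scaling by total counts. *Rpl7a* had 19249, 19450 and 19069 normalized counts in the control, 22025, 21865 and 22658 in Ins/Ins, and 22322, 23027 and 22994 in Ins/Del. Both mutants lay above the control and overlapped each other, at 0.20 (log2) in Ins/Ins and 0.24 in Ins/Del (adjusted p = 5.8e-09 and 7.9e-11 from edgeR). *Rpl15* likewise gave 0.14 and 0.15, with a difference of 0.003 between the mutants. *Rps24*, another gene mutated in Diamond-Blackfan anaemia, gave 0.29 and 0.15, and *Rps29* 0.30 and 0.22. *Rpl7a*, *Rpl15*, *Rps24* and *Rps29* were chosen for these lines after their values were seen. The transcript of *Rpl7a* shares 81.16% of its 50-base windows with 120 other genes, and that of *Rps24* shares 19.05% with 9.

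**Figure D4:**
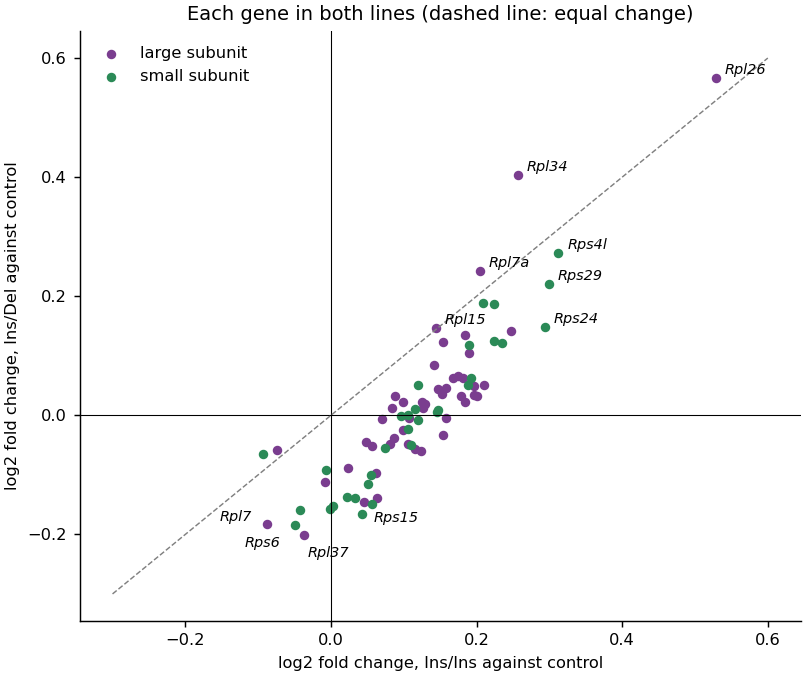
Log2 fold change against the control in Ins/Del (vertical) and in Ins/Ins (horizontal) for large subunit (purple) and small subunit (green) genes, without *Rpl10l*, *Rpl39l* and *Rpl3l*. Both axes use the same control libraries, so the points are not independent in the 2 directions. Most points lie below the dashed line of equal change, as 74 of the 82 genes had a negative difference between the mutants, and *Rpl26*, *Rpl34* and *Rpl7a* lie on or above it.

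To find members that left the family, whatever its overall level, the counts were scaled so that the typical member had no change, and a member was called apart when its adjusted p was at most 0.01 and its fold at least 1.2 on this scale. In Ins/Ins, *Rpl10l* and *Rpl26* stood apart. In Ins/Del, *Rpl10l*, *Rpl39l*, *Rpl26*, *Rpl34* and *Rps4l* did. All these departures were upward, and on the same scale 15.1% and 23.5% of all genes tested passed upward in Ins/Ins and in Ins/Del. The limit of 1.2 is 0.263 on the log2 scale. Just inside it lay *Rps4l* in Ins/Del (0.27), and just outside it *Rpl39l* in Ins/Ins (0.261) and *Rpl7a* in Ins/Del (0.24). *Rpl39l* also stood apart in Ins/Ins with scaling by the summed counts of the members, without control replicate 1 and without Ins/Ins replicate 3. Without control replicate 1, *Rpl3l* joined in both mutants, which gave 4 genes in Ins/Ins and 6 in Ins/Del.

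*Rpl10l* changed most. It is a gene without introns on the minus strand of chromosome 12 (GRCm38, 66283379 to 66284401), known as a retrocopy of the X-linked *Rpl10* that takes its place in male meiosis. It had 384, 372 and 328 normalized counts in the control, 1446, 1526 and 1408 in Ins/Ins, and 1656, 1639 and 1623 in Ins/Del. Both mutants stood far above the control, and Ins/Del stood above Ins/Ins in every library. The means were 361 ± 29.4 (SD, n = 3), 1460.1 ± 59.9 and 1639 ± 16.4, a fold of 4.04 in Ins/Ins and of 4.54 in Ins/Del. On the log2 scale these are 2.01 (standard error 0.055, edgeR adjusted p = 8.8e-29) and 2.18 (standard error 0.054, edgeR adjusted p = 2.9e-30). Between the mutants it differed by 0.17 (adjusted p = 0.0055 from edgeR), a call that was lost with DESeq2 and in 5 of the 6 fits that left out a mutant library.

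*Rpl10*, whose product joins the large subunit late in the cytoplasm and is needed for its final maturation, had 12528, 12552 and 11958 normalized counts in the control. It had 12380, 12021 and 12439 in Ins/Ins and 10987, 11514 and 11786 in Ins/Del, where all libraries lay below the others. Its log2 fold change was -0.01 in Ins/Ins and -0.11 in Ins/Del (adjusted p = 0.00078 from edgeR, lost without control replicate 2 or Ins/Del replicate 1). Per length, *Rpl10l* made up 2.39% ± 0.131 (SD, n = 3) of the reads of the 2 genes in the control, 9.04% ± 0.49 in Ins/Ins and 10.7% ± 0.438 in Ins/Del. Of the 50-base windows of *Rpl10l*, 7.6% were found in another gene, so most of its transcript can be told apart. Of those of *Rpl10*, 85.36% were found in other genes, 15 in all. The count of *Rpl10* and the shares of the pair therefore depend on how shared reads were counted, which is not known.

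The 250 bases before the starts of the 2 genes are shown because the paralogs moved apart in the same libraries. Both are RefSeq sequences of GRCm38.p6 on the strand of the gene, and capitals mark matches, on either strand, to the ETS, YY1, E-box, E2F and TATA letters given above.
Rpl10l (chr12:66284402-66284651, minus strand): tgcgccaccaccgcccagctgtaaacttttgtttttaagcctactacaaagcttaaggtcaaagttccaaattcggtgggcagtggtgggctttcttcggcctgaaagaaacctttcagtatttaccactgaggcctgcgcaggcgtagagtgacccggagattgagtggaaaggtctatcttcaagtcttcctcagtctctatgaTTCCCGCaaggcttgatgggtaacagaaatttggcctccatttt
Rpl10 (chrX:74270566-74270815, plus strand): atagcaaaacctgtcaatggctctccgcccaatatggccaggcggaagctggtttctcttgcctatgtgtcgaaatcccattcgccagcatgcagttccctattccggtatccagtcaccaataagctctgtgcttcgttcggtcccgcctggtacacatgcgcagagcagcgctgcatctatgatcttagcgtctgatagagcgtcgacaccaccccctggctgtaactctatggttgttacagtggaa
The window of *Rpl10l* holds 8 CpG dinucleotides and the reverse complement of the E2F letters, and that of *Rpl10* holds 13 CpG dinucleotides and none of the 5 motifs.

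*Rpl39l*, an autosomal paralog of the X-linked *Rpl39* best known from testis, also rose in both mutants, and more in Ins/Del. It lies on chromosome 16 (GRCm38, 10170226 to 10174911, plus strand), and none of its 50-base windows was found in another gene. It had 448, 426 and 422 normalized counts in the control, 595, 554 and 536 in Ins/Ins, and 849.5, 854 and 876 in Ins/Del, with no overlap between any 2 lines. The means were 432 ± 13.8 (SD, n = 3), 562 ± 30.4 and 859.7 ± 14.2. Against the control it rose by 0.38 (log2) in Ins/Ins, with a standard error of 0.062 and an edgeR adjusted p of 1.2e-06. In Ins/Del it rose by 0.99, with a standard error of 0.058 and an edgeR adjusted p of 4.9e-18. The difference of 0.61 between the mutants (adjusted p = 1.4e-10 from edgeR) was called under all 17 alternatives tried.

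*Rpl39* had 2926, 3015 and 3048 normalized counts in the control, 3285, 3152 and 3384 in Ins/Ins, and 2855, 3126 and 3126 in Ins/Del, which is the pattern of most members. Its log2 fold change was 0.13 in Ins/Ins (adjusted p = 0.0019 from edgeR, lost without control replicate 1 or Ins/Ins replicate 3) and 0.02 in Ins/Del. Per length, *Rpl39l* made up 9.89% ± 0.474 (SD, n = 3) of the reads of the pair in the control, 11.5% ± 0.713 in Ins/Ins and 17.7% ± 0.647 in Ins/Del.
Rpl39l (chr16:10169978-10170227, plus strand): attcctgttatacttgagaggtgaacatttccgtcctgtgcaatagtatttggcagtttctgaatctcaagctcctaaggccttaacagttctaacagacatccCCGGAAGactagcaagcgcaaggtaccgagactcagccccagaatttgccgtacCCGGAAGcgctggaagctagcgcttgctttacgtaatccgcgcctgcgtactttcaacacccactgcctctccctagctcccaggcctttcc
Rpl39 (chrX:37085223-37085472, minus strand): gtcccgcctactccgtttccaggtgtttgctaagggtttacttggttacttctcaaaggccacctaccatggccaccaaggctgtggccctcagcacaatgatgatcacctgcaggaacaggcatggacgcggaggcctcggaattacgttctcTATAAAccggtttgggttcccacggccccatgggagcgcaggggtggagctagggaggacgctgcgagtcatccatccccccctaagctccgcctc
These 250 bases before the starts, from the same source and with capitals for the same motifs, show the ETS letters 2 times in *Rpl39l* and TATAAA in *Rpl39*, and each holds 12 CpG dinucleotides.

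*Rpl26* and *Rpl34*, both of the large subunit, stood apart with few reads. RPL26 is known to bind the messenger RNA of p53. *Rpl26* had 205, 176 and 200.3 normalized counts in the control, 287, 277 and 276 in Ins/Ins, and 274, 301 and 287 in Ins/Del, with both mutants above the control and overlapping each other. Its log2 fold change was 0.53 in Ins/Ins and 0.57 in Ins/Del (adjusted p = 1.8e-06 and 4.1e-07 from edgeR). *Rpl34* had 316, 259 and 234 in the control, 329, 324 and 321 in Ins/Ins, and 353, 337 and 396 in Ins/Del, so that control replicate 1 lay close to the Ins/Ins libraries. It gave 0.40 in Ins/Del (adjusted p = 0.00010 from edgeR) and 0.26 in Ins/Ins (adjusted p = 0.011 from edgeR), which passed the limit without control replicate 1 and under 3 other alternatives. Their levels were 22.9 and 27.97 RPKM, far below the median member. Shared windows make up 61.04% of the *Rpl26* transcript, with 12 other genes, and 37.91% of that of *Rpl34*, with 9.

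*Rps4l* is annotated as a transcribed processed pseudogene on chromosome 6 and resembles the X-linked *Rps4x* of the small subunit. It had 6809.5, 6708 and 6134 normalized counts in the control, 8301, 8058 and 8053 in Ins/Ins, and 7871.5, 7999.7 and 7885 in Ins/Del. Both mutants lay above the control, with log2 fold changes of 0.31 and 0.27 (adjusted p = 2.9e-11 and 7.5e-10 from edgeR). *Rps4x* had 20091, 20137.5 and 19823.5 in the control, 18863, 19336 and 20103 in Ins/Ins, and 17136, 18231 and 18413 in Ins/Del. It gave -0.04 in Ins/Ins (adjusted p = 0.18 from edgeR) and fell by 10.4% in Ins/Del (adjusted p = 4.9e-06 from edgeR). Of the reads per length of the pair, *Rps4l* took 25.3% ± 0.907 (SD, n = 3), 30.2% ± 0.996 and 31.4% ± 0.768. Shared windows make up 14.88% of the *Rps4l* transcript and 72.25% of that of *Rps4x*, so these shares also depend on how shared reads were counted. Without control replicate 3, *Rps4l* no longer stood apart in Ins/Del.

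**Figure D5:**
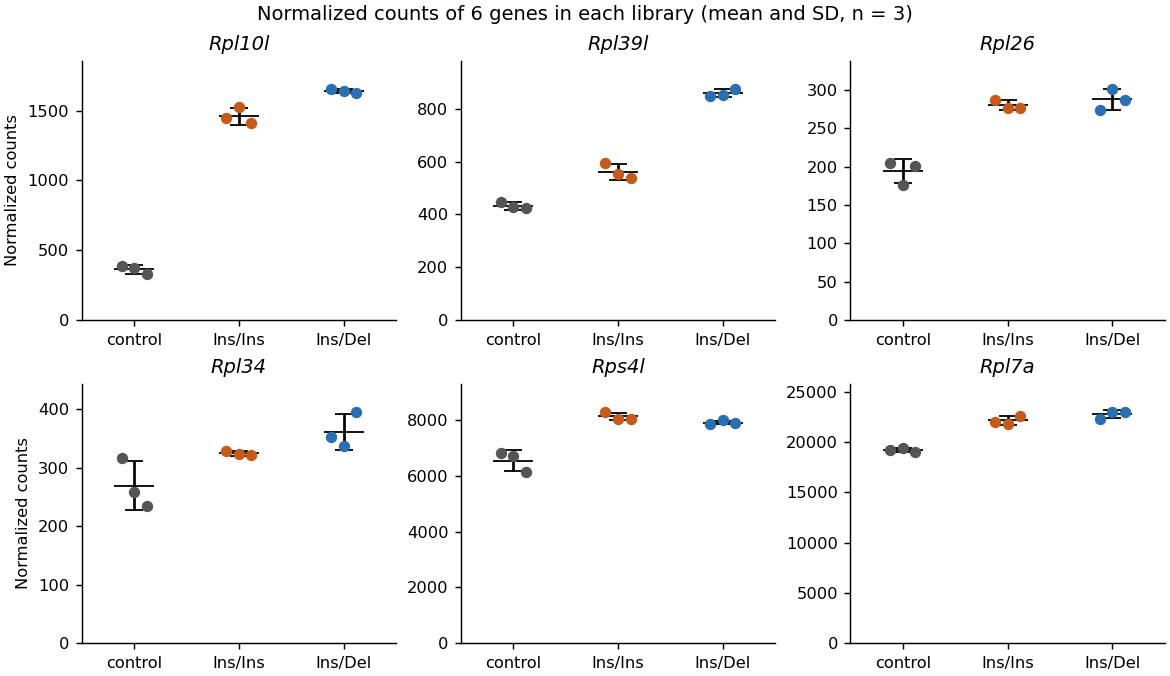
Normalized counts (vertical, from 0) of the 5 genes that stood apart from the family and of *Rpl7a* in each library. Points are libraries, and bars give the mean and SD of 3 libraries. *Rpl10l* has a mean of 361 in the control, 1460.1 in Ins/Ins and 1639 in Ins/Del, and *Rpl39l* is highest in Ins/Del.

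*Rpl3l*, a form of *Rpl3* found in heart and skeletal muscle, had 24, 5 and 9 reads in the control, 29, 20 and 22 in Ins/Ins, and 21, 21 and 26 in Ins/Del. Its log2 fold change of 0.92 in Ins/Ins had an adjusted p of 0.017 from edgeR and passed the limit without control replicate 1 and with no filter on low counts. *Rps27l*, a target of p53, gave means of 3114 ± 63.7 (SD, n = 3) for the control, 3606 ± 136 for Ins/Ins and 3548 ± 152 for Ins/Del in normalized counts, and rose by 0.21 and 0.19 on the log2 scale (adjusted p = 2.0e-06 and 9.6e-06 from edgeR). *Rps27*, with 48.1 ± 7.60, 45.8 ± 4.97 and 45.9 ± 6.35, was not called in either line. *Rpl22l1*, left out by the rule, was lower in both mutants by 0.13 (log2), a call lost in 6 of 17 alternatives in Ins/Ins and in 5 in Ins/Del. Those common to both lines were DESeq2, upper-quartile factors and leaving out control replicate 1 or 2. *Rpl22* was 8.95% higher in Ins/Ins and gave -0.06 (log2) in Ins/Del (adjusted p = 0.041 from edgeR). *Rpl36al* was not called in either line.

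Ribosomal genes beyond the rule give the setting of these changes. *Rack1*, a signalling scaffold on the small subunit, was lower in both mutants, by -0.11 in Ins/Ins and -0.22 in Ins/Del (log2, adjusted p = 0.00038 and 1.5e-09 from edgeR), and its call in Ins/Ins was lost without control replicate 2. *Fau*, which encodes a small subunit protein fused to a ubiquitin-like protein, gave 0.03 in Ins/Ins and -0.11 in Ins/Del, and was called lower in Ins/Del, a call lost in 5 of the 17 alternatives, including the fits without control replicate 1 or 2 or Ins/Del replicate 2 or 3. Of 5 processed copies with a ps symbol that were tested, 1 was higher in Ins/Ins.

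Of the 78 genes of the mitochondrial ribosome, 39 were higher and 5 lower in Ins/Ins, and in Ins/Del 42 were higher and 5 lower, with median log2 fold changes of 0.19 and 0.20. Between the mutants 1 was higher and 1 lower, with a median of -0.01. *Mrps10* rose by 0.57 and 0.72, while *Mrpl52* fell by 0.67 and 0.92 on the log2 scale.

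Of 18 further genes whose messenger RNAs carry a TOP motif, such as elongation factors, 3 were higher and 4 lower in Ins/Ins, and 3 higher and 9 lower in Ins/Del. Their median log2 fold changes were 0.0001 and -0.08. *Tpt1*, which encodes the translationally controlled tumour protein, fell by 0.91 and 1.01, *Eif4b* fell by 0.24 and 0.43, and *Eef1d* rose by 0.34 and 0.31. Between the mutants 5 were lower in Ins/Del.

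Of 71 ribosome assembly factors, 19 were higher and 9 lower in Ins/Ins, and 26 higher and 6 lower in Ins/Del. Of 14 genes of RNA polymerase I and its factors, which make the ribosomal RNA precursor, 4 were higher and 3 lower in Ins/Ins and 4 higher and 5 lower in Ins/Del. Of 7 chaperones of single ribosomal proteins, 4 were higher and 1 lower in Ins/Ins and 3 higher and 1 lower in Ins/Del. Among 13 regulators of ribosomal protein genes, 3 were higher and 5 lower in Ins/Ins and 6 higher and 4 lower in Ins/Del. *Mycn*, a Myc family factor that drives ribosome production in many cells, fell by 1.26 in Ins/Ins and by 1.76 in Ins/Del, while *Zbtb7a* rose by 0.68 and 0.66 on the log2 scale. All these counts stand beside the 29% and 29.4% of all genes called higher and lower in Ins/Ins and the 30.6% and 31.9% in Ins/Del, and those between the mutants beside 6.17% higher and 4.64% lower.

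Properties of the genes that the rule did not use were set beside their changes as a description. Across the 82 genes, which share all libraries, the difference between the mutants had a Pearson correlation of -0.53 with the log2 of the mean count and a Spearman correlation of -0.55. With transcript length these were -0.16 and -0.20, and with GC content -0.15 and -0.01. Among the 75 genes with at least 1000 normalized counts the correlation with the mean count was -0.51 and -0.43. Mean count and change are computed from the same reads, and the deeper counted genes have smaller errors.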

How the data were processed

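RNA was measured by sequencing in 9 libraries. The authors prepared messenger RNA libraries, aligned the reads to mm10 with STAR 2.7.3 and counted them on genes with HTSeq (the submitters' processing notes also name DESeq2 1.22.2). The deposited values are whole, unscaled counts for each gene symbol. The annotation and strand setting of the counting are not given in the sources used here, so genes that overlap or share sequence are uncertain. Libraries were grouped by their genotype label. In Ins/Ins against the control, the edgeR fit gave a median standard error of 0.029 (log2) for ribosomal protein genes and 0.074 for all genes tested.

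TMM factors, the filterByExpr filter and the quasi-likelihood fit came from edgeR 4.0.16 (R 4.3.3). All libraries entered a fit with the 3 genotypes as groups and without covariates, a design that follows the authors' methods in its limit of 0.01 on the Benjamini-Hochberg adjusted p. Counts were normalized by the TMM-scaled library size and brought to the average size of the 9 libraries. For departures, library factors came from the median of ratios over the 82 genes. Positions, lengths and shared windows came from GENCODE M21 on GRCm38, which is mm10, and promoters from RefSeq. Replicates of a line differed by more than sampling noise, with chi-square values of 1.91 to 4.87 per gene. All 3 fits were also run on simulated data with the same planted changes in both mutants. No difference between the mutants was planted, so that comparison was not checked for recovery. The outcome is not reported here.

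The members and gene lists were chosen with earlier results of these data known. Named genes were the members that stood apart, the paralog pairs, the stalk, p53-linked, S6, ubiquitin fusion, laminin receptor and haploinsufficiency genes, and the 3 members with the most and the fewest reads per length. Of other lists, up to 3 genes called in both mutants were named by size of change. *Thy1*, *Rpl9*, *Rpl30*, the genes with printed starts and those listed only by their pattern of calls were named after their values were seen. Alternatives were DESeq2 1.42.0, other scalings, no filter, fits of the compared groups only, a replicate block, each library left out, an adjusted p of 0.05, other totals and only members with at least 1000 counts. TMM factors without the members were added after the data were seen. Values of some single genes are not reported here, although they enter the counts, sums and medians.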

Additional observations from a re-analysis of the deposited data

Results flagged for a closer look

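In the main fit, with TMM factors and all libraries, 36 of the 70 genes followed by name differed between the mutants. The test was the direct edgeR test of Ins/Del against Ins/Ins (adjusted p of at most 0.01). Over all genes tested, 6.17% were called higher in Ins/Del and 4.64% lower. Some of the 70 were named after their values were seen, so their share says nothing about the family as a whole. Higher in Ins/Del than in Ins/Ins were *Rpl39l* (log2 difference 0.61) and *Rpl10l* (0.17), and outside the family *Rbbp4* (0.89), *Sox7* (0.59) and *Thy1* (0.34). Lower in Ins/Del outside the family were *Mycn* (-0.50), *Eif4b* (-0.19), *Fau* (-0.14) and *Rack1* (-0.11). The other 27 were members lower in Ins/Del. The lowest of them were *Rps15* (-0.21), *Rps20* (-0.21), *Rpl28* (-0.20), *Rpl22* (-0.18), *Rps26* (-0.17), *Rpl3* (-0.17) and *Rps9* (-0.17). Then came *Rpl37* (-0.16), *Rplp1* (-0.16), *Rps27a* (-0.16), *Rps14* (-0.16), *Rpl18* (-0.16), *Rpsa* (-0.16), *Rps3* (-0.15), *Rpl13a* (-0.15), *Rplp2* (-0.15) and *Rps24* (-0.15). Closer to 0 lay *Rps6* (-0.14), *Rpl4* (-0.13), *Rplp0* (-0.12), *Rpl8* (-0.12), *Rps4x* (-0.12), *Rpl19* (-0.11), *Rps21* (-0.11), *Rpl21* (-0.11), *Rpl10* (-0.10) and *Rpl7* (-0.095). Under the 17 alternatives the calls of *Rpl10* (lost in 8), *Rpl7* (lost in 7), *Rpl10l*, *Rps21* and *Sox7* (lost in 6 each) were the least stable of these, and the call of *Rpl39l* was kept in all 17.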

How the results depend on the processing

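Over all alternatives the median log2 fold change of the 82 genes stayed between 0.11 and 0.14 in Ins/Ins and between -0.13 and -0.10 for Ins/Del against Ins/Ins. In Ins/Del against the control it lay between -0.0055, with scaling by total counts, and 0.039, so its sign depends on the scaling. With upper-quartile factors 0 genes were lower in Ins/Ins, and with DESeq2 1 gene was higher in Ins/Del than in Ins/Ins. Without *Rn45s* in the total the mean share was 5.58% in Ins/Ins and 5.11% in Ins/Del. Leaving out each library in turn gave 47 to 57 genes higher and 0 to 1 lower in Ins/Ins (0 without control replicate 2 or Ins/Ins replicate 1), 15 to 19 higher and 12 to 17 lower in Ins/Del, and 1 to 2 higher and 30 to 55 lower in Ins/Del than in Ins/Ins. The count of genes higher in Ins/Del than in Ins/Ins was 1 without Ins/Ins replicate 1 or 3 or any Ins/Del replicate. The genes that stood apart numbered 2 to 4 in Ins/Ins and 4 to 6 in Ins/Del, and the median in Ins/Del against the control was 0.0016 to 0.0389. With the replicate block, 54 genes were higher in Ins/Ins, 17 higher in Ins/Del and 48 lower in Ins/Del than in Ins/Ins. Deviations of same-numbered libraries from the means of their lines, over all genes tested, had correlations of -0.024 to 0.060. Libraries with different numbers were not compared in this way, so these values do not decide whether the numbers pair libraries. Of the alternative values of 70 genes, 3330 kept their direction and side of the limit, 67 changed sign with no call in either fit, 131 lost the call and 39 gained it. The causes of these shifts were not tested. Depth limits *Rpl3l*, *Rpl32l* and *Rps27*, with at most 64 reads in a library.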
